A study of Homo sapiens with 3 samples.

Results

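The endothelial lectin CD93, its relatives and a family of matrix proteins were followed across 3 populations of human cells sorted by surface CD105. The genes were CD93, CLEC14A, CD248 and THBD, which encode the group 14 C-type lectins, and MMRN1, MMRN2, EMILIN1 and EMILIN2, which encode multimerins and EMILINs. They were taken by symbol, and all 8 were found among the 18345 genes with a value in each library. CD93 was chosen because it goes up with CD105 in these libraries, so its own values are a description. The starting cells were of the established line H1, human embryonic stem cells, and were sorted as CD31+CD34+ cells, called HEPs in the labels, at day 4 of differentiation towards blood. All populations shared 1 culture scheme: 40 ng/ml activin A plus 50 ng/ml BMP4 for 2 days, followed by a stage of 40 ng/ml VEGF plus 50 ng/ml bFGF that the labels give as 3 days. The sort gave a CD105neg, a CD105low and a CD105high population, with 1 RNA-seq library each and no spread between replicates, so every difference below is one between single libraries and carries no p-value.

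Group 14 lectins are single-pass membrane proteins with a C-type lectin-like domain, EGF-like repeats and a mucin-like stalk. EMILINs and multimerins are secreted glycoproteins that carry an N-terminal EMI domain, coiled-coil stretches and, at the C-terminus, a gC1q domain. The families meet at MMRN2, an endothelial matrix protein to which CD93, CLEC14A and CD248 bind. CD93 and CLEC14A are known from endothelial cells of growing vessels, CD248 (endosialin) from fibroblasts and pericytes, and THBD (thrombomodulin) from the endothelial surface, where it turns thrombin towards the activation of protein C.

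The 8 genes parted into 4 that stood higher and 4 that stood lower with each step of CD105. CD93, CLEC14A, THBD and MMRN2 were lowest in CD105neg, intermediate in CD105low and highest in CD105high. CD248, MMRN1, EMILIN1 and EMILIN2 ran in the opposite order. These orders are those of single libraries, and some neighbouring values differ by little. FPKM is a transcript level scaled by length and by library depth. Of the 11343 genes that reached 1 FPKM in some library, here called measured, 17.6% were in the ascending order and 36.4% in the descending order, so the descending order is common in these libraries. All 8 genes were measured by this rule. Among the 641 measured genes at least 1.5-fold higher in CD105high than in CD105neg, 87.5% were in the ascending order. Fold changes were taken after adding 1 to each level, so a low gene has a smaller fold than its printed values give. In bulk libraries, fewer cells of a type and less RNA per cell cannot be told apart.

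**Figure D1:**
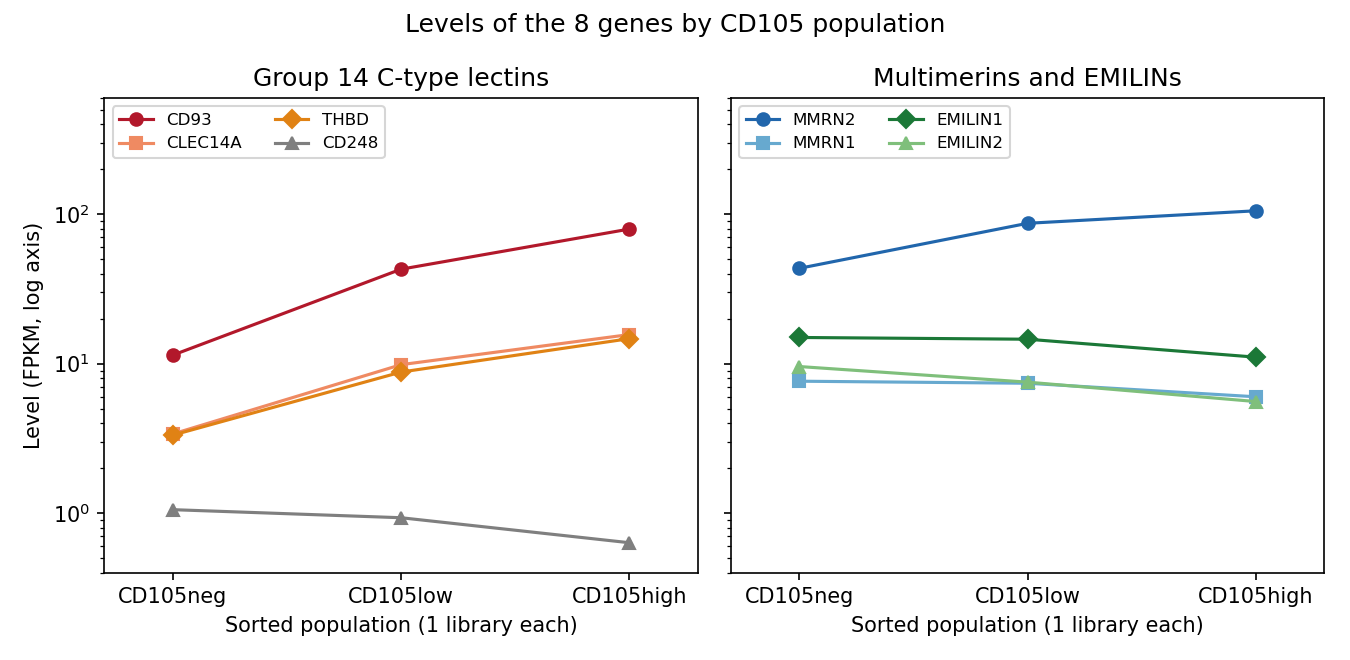
FPKM of each gene (log axis) in the CD105neg, CD105low and CD105high libraries, with lectins on the left and multimerins and EMILINs on the right; each point is 1 library. CD93, CLEC14A, THBD and MMRN2 climb along the sort, with CD93 reaching 79.6 FPKM and MMRN2 106 FPKM, while the other genes lie lower to the right and CD248 stays near 1 FPKM.

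The sort itself can be read from the genes of its gate. Along the sort (CD105neg, CD105low, CD105high), the CD105 gene ENG measured 2.12, 8.56 and 13.8 FPKM. The value column of the CD105neg library is headed as if CD105 positive, but its ENG level was the lowest of the 3. PECAM1 (CD31) stood at 29.9, 41.9 and 50.1 FPKM in the same order, and CD34 at 21.0, 39.2 and 43.2 FPKM. The 3 libraries summed to between 265618 and 289229 FPKM, and the spacing of the lowest values puts CD105low at 1.11 and CD105high at 1.04 times the depth of CD105neg if the values are FPKM.

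Among the lectins, CD93 (ENSG00000125810.9) was the most abundant in every library. CD105neg held 11.4 FPKM of it, CD105low 42.9 FPKM and CD105high 79.6 FPKM. On the log2 scale, CD105high was 2.70 above CD105neg, CD105low was 1.82 above CD105neg, and CD105high was 0.88 above CD105low. In level it passed 56.7% of measured genes in CD105neg, 89.7% in CD105low and 95.3% in CD105high. CLEC14A (ENSG00000176435.6), an endothelial lectin of sprouting vessels, stood at 3.39, 9.85 and 15.7 FPKM in CD105neg, CD105low and CD105high. Its log2 fold changes for the same 3 comparisons were 1.93, 1.31 and 0.62. Its 3 libraries thus lay apart in the same order as those of CD93, with smaller folds. THBD (ENSG00000178726.6), the thrombin receptor, ran almost level with CLEC14A, at 3.33, 8.79 and 14.7 FPKM. Its log2 fold changes were 1.86, 1.18 and 0.68. CLEC14A passed 21.6%, 50.4% and 68.6% of measured genes in level, and THBD 21.3%, 46.4% and 66.4%, so both were among the lower genes in CD105neg and in the upper part in CD105high.

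CD248 (ENSG00000174807.3) was the exception among the lectins. CD105neg held 1.05 FPKM, CD105low 0.93 FPKM and CD105high 0.63 FPKM, so it counted as measured through CD105neg only. Its log2 fold change of CD105high against CD105neg, -0.33, did not reach 1.5-fold. On the plain ratio of values CD105high held 0.60 times the level of CD105neg. CLEC14A, CD248 and THBD each have 1 exon and CD93 has 2, and each has a single annotated transcript in GENCODE release 29, so its value can be set against the smallest step between low values (0.0131 FPKM times kilobases in CD105neg, 0.0118 in CD105low and 0.0126 in CD105high). If 1 step is 1 fragment, CD248 rested on about 129 fragments in CD105high (exact 95% Poisson interval 108 to 153) and 207 in CD105neg (180 to 237). In CD105low it rested on about 202 (175 to 232), an interval that overlaps that of CD105neg. CLEC14A on the same terms rested on about 2822 fragments in CD105high (2720 to 2930) and 588 in CD105neg (541 to 638). These intervals cover counting error only, not the spread between cultures.

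CD93 and THBD lie next to each other on chromosome 20, CLEC14A on chromosome 14 and CD248 on chromosome 11. In the RefSeq gene order, restricted to genes with a value, THBD and CD93 are neighbours, and the genes that flank this pair differed little. NXT1, the neighbour of CD93, which encodes an mRNA export cofactor, stood at 24.01 FPKM in CD105high, against 21.7 in CD105neg (log2 fold change 0.14). SSTR4, the somatostatin receptor gene beside THBD, was listed at 0 in CD105neg and CD105low and at 0.0088 FPKM in CD105high. Around CLEC14A, SEC23A, a coat protein gene of vesicles that leave the endoplasmic reticulum, stood at 42.3 against 39.1 FPKM in CD105high and CD105neg, and SSTR1 at 0.14 against 0.12 FPKM. Beside CD248, RIN1, a RAS effector gene, stood at 3.12 FPKM in CD105high, against 4.71 in CD105neg, and TMEM151A stayed under 0.04 FPKM in each library.

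Of the matrix genes, MMRN2 (ENSG00000173269.13; chromosome 10) was the most abundant. CD105neg held 43.5 FPKM, CD105low 87.02 FPKM and CD105high 106 FPKM. On the log2 scale, CD105high was 1.26 above CD105neg, CD105low was 0.98 above CD105neg, and CD105high was 0.28 above CD105low, so most of its difference lay between CD105neg and CD105low. In GENCODE release 29, 8.25% of the exon bases of MMRN2 also belong to ADIRF-AS1 on the same strand, and how reads were divided between these genes is not stated. The genes that flank MMRN2 differed little: SNCG, a synuclein gene, stood at 22.2 FPKM in CD105high, against 20.7 in CD105neg, and BMPR1A, a BMP receptor gene, at 11.3 against 10.02 FPKM.

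The other matrix genes were lower in CD105high. EMILIN2 (ENSG00000132205.10; chromosome 18), an extracellular matrix protein gene, stood at 9.57, 7.53 and 5.58 FPKM in CD105neg, CD105low and CD105high. With a log2 fold change of -0.68 for CD105high against CD105neg it was the single member at least 1.5-fold lower. This call ended with a pseudocount of 5 (-0.46) and at a minimum of 10 FPKM, which EMILIN2 does not reach, and with a pseudocount of 0.1 CD248 (-0.65) was lower as well. A matrix gene of vessel walls, EMILIN1 (ENSG00000138080.13; chromosome 2), whose product joins elastic fibres to cells and restrains the processing of TGF-beta precursors, stood at 15.0, 14.6 and 11.1 FPKM. Its log2 fold change for CD105high against CD105neg was -0.41, under 1.5-fold. MMRN1 (ENSG00000138722.9; chromosome 4), a factor V binding protein stored in platelet alpha granules and endothelial cells, stood at 7.64, 7.40 and 6.01 FPKM, and its log2 fold change of -0.30 was also under 1.5-fold. For EMILIN1 and MMRN1 the values of CD105low were 0.97 times those of CD105neg, and the difference lay between CD105high and CD105low, where the log2 fold changes were -0.37 and -0.26. KHK, the ketohexokinase gene that follows EMILIN1 on the chromosome, was lower as well, at 1.09 FPKM in CD105high, against 2.87 in CD105neg (log2 fold change -0.89), while OST4 on the other side stood at 113 against 127 FPKM. LPIN2, a phosphatidate phosphatase gene beside EMILIN2, stood at 18.3 FPKM in CD105high, against 13.6 in CD105neg, the opposite direction to EMILIN2, and SMCHD1 on its other side at 27.8 against 31.1 FPKM. Beside MMRN1, CCSER1 stood at 0.37 FPKM in CD105high, against 0.61 in CD105neg.

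By the 1.5-fold rule, 4 of the 8 genes were higher and 1 was lower in CD105high than in CD105neg, and 3 were neither. Over all 11343 measured genes, 5.65% were higher and 6.88% lower in this comparison. CD93 was chosen on this comparison, and the other members were listed with these results known, so nothing is read from the size of that count. In CD105low against CD105neg, 4 members were higher and none lower, where 4.13% of measured genes were higher and 2.18% lower. This comparison and the first share the CD105neg library. In CD105high against CD105low, 3 members were higher (CD93, CLEC14A and THBD) and none lower, where 1.18% of measured genes were higher and 2.19% lower. The median log2 fold change of all measured genes was -0.09, 0.02 and -0.10 in the 3 comparisons, and that of the 8 members 0.48, 0.47 and 0.02. Over all measured genes 641 were higher and 780 lower in CD105high than in CD105neg. After centring on the median gene these counts became 837 and 511, and the members' counts stayed at 4 and 1. For CD105high against CD105low, centring turned 134 higher and 248 lower genes into 201 and 155, with the members' counts still at 3 and 0.

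Where CD105low lay between the ends also differed among the members. CD105low held 67.5% of the log2 difference between CD105high and CD105neg for CD93, 67.8% for CLEC14A and 63.4% for THBD. For MMRN2 it held 78.2%. Over the 641 measured genes at least 1.5-fold higher in CD105high the median was 71.1%. For EMILIN2 it was 45.4%, against a median of 55.1% over the 780 genes at least 1.5-fold lower.

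The makeup of each family differed along the sort. Summed over the 4 lectins, CD105neg held 19.2 FPKM, CD105low 62.5 FPKM and CD105high 111 FPKM. CD93 made up 59.5%, 68.7% and 72.0% of it, and CD248 5.50%, 1.49% and 0.57%. The 4 matrix genes summed to 75.7, 117 and 128 FPKM, of which MMRN2 made up 57.5%, 74.7% and 82.3%. EMILIN1 made up 19.8%, 12.5% and 8.63% of the matrix sum. Since FPKM is scaled by length, the level of a receptor gene can be set against that of its ligand gene. The ratio of CD93 to MMRN2 was 0.26 in CD105neg, 0.49 in CD105low and 0.75 in CD105high. That of CLEC14A to MMRN2 was 0.078, 0.11 and 0.15. MMRN2 was thus the more abundant transcript in each library, and the gap to CD93 was narrowest in CD105high. CLEC14A and THBD kept a ratio of 1.02, 1.12 and 1.07.

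**Figure D2:**
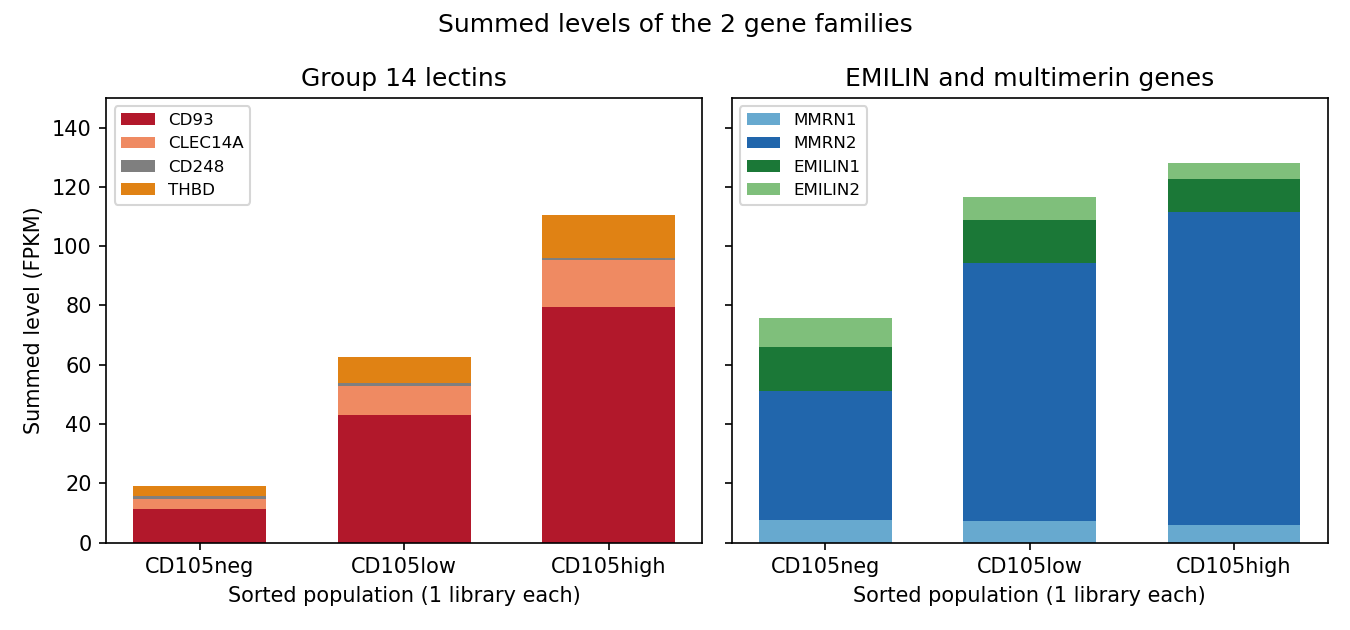
Summed FPKM of the 4 lectin genes (left) and the 4 matrix genes (right) in the CD105neg, CD105low and CD105high libraries, with the colours giving each gene's part. CD93 and MMRN2 form the larger part of every bar, and the lectin bar is taller in CD105high, at 111 FPKM, than in CD105neg, at 19.2 FPKM.

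PECAM1 and CDH5, the cadherin of endothelial junctions, were also higher in CD105high, so the members were set against both. CDH5 measured 48.01, 79.6 and 94.1 FPKM along the sort. The ratio of CD93 to PECAM1 was 1.59 in CD105high and 0.38 in CD105neg, and that to CDH5 0.85 and 0.24. CLEC14A stood at 0.31 times PECAM1 in CD105high and 0.11 times in CD105neg, and THBD at 0.29 and 0.11 times. MMRN2 differed least against CDH5, at 1.12 times CDH5 in CD105high and 0.91 times in CD105neg. Against PECAM1 it stood at 2.11 times in CD105high and 1.46 times in CD105neg. The descending genes stood further apart on this scale, as any gene with level or lower values in CD105high must when the divisor is higher there. EMILIN2 stood at 0.059 times CDH5 in CD105high and 0.20 times in CD105neg, EMILIN1 at 0.12 and 0.31 times, MMRN1 at 0.064 and 0.16 times and CD248 at 0.0067 and 0.022 times.

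**Figure D3:**
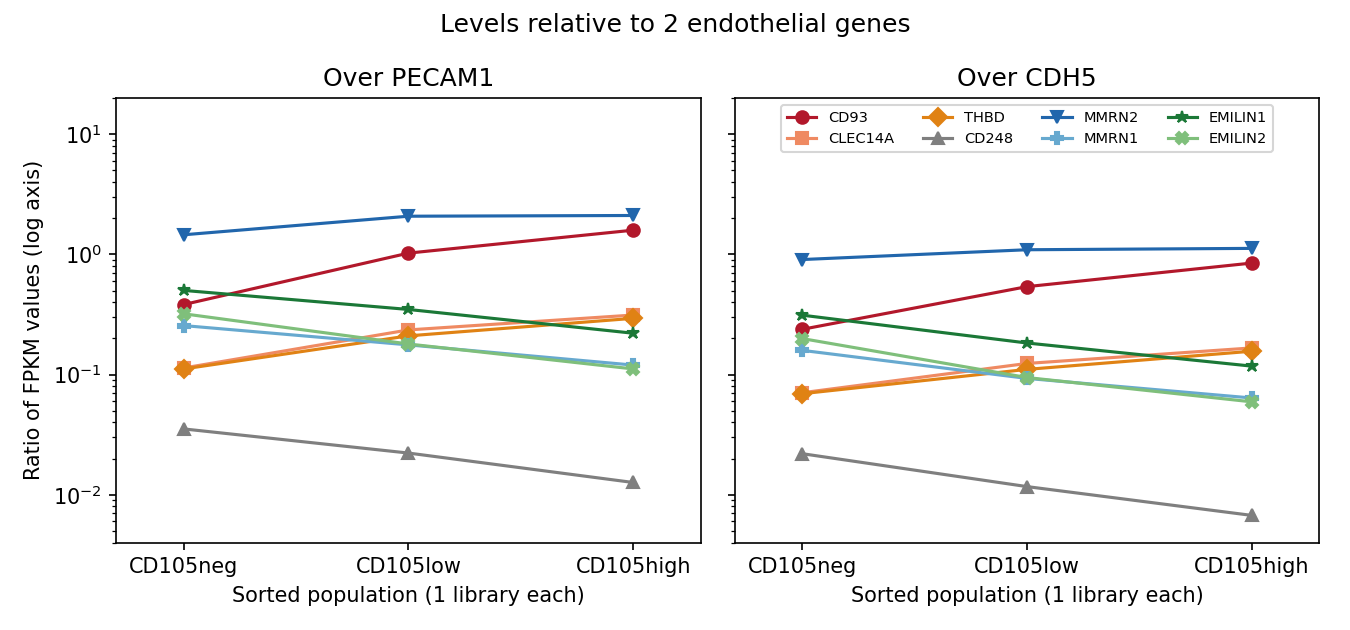
Ratio of each gene's FPKM to that of PECAM1 (left) and of CDH5 (right) in the 3 libraries, on a log axis; each point is 1 library. CD93, CLEC14A and THBD climb against both genes, and the other genes except MMRN2 drop, as a gene with level values also would. MMRN2 is nearly level against CDH5 (0.91 in CD105neg and 1.12 in CD105high) and higher in CD105high against PECAM1 (1.46 and 2.11).

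Promoter windows in the RefSeq table (build GRCh38.p14) were available for CLEC14A, MMRN2, EMILIN2 and MMRN1, the last with a pair of starts, and the 250 bases before each start were searched on both strands. They are shown for the ascending CLEC14A and MMRN2 and for the descending EMILIN2 and MMRN1. The bases just after the start were found in the gene's own GENCODE transcripts for CLEC14A, MMRN2 and the second start of MMRN1. They were not found for EMILIN2 or the first start of MMRN1. The windows are thus unlike, and ascending and descending genes cannot be compared by them. Where GENCODE places a window wholly or partly inside an exon (CLEC14A, MMRN2 and the second start of MMRN1), stretches of 30 bases around matches are given, and the other windows are given whole. Capitals mark GGAA or its complement TTCC, the core that ETS factors of endothelial cells recognise. Positions count back from the RefSeq start. The CLEC14A stretches (chr14:38256283-38256312, chr14:38256226-38256255 and chr14:38256135-38256164, minus strand) begin at -219, -162 and -71. The MMRN2 stretches (chr10:86957822-86957851, chr10:86957777-86957806 and chr10:86957650-86957679, minus strand) begin at -236, -191 and -64. Those of the second MMRN1 start (chr4:89894635-89894664, chr4:89894734-89894763 and chr4:89894788-89894817, plus strand) begin at -219, -120 and -66. Not every match is inside a stretch shown. The others begin at -131 and -34 in CLEC14A, at -144 and -21 in MMRN2, and at -171, -147 and -9 for the second MMRN1 start. The EMILIN2 window is chr18:2846756-2847005 and the MMRN1 window chr4:89879261-89879510, both on the plus strand.
CLEC14A, from -219: ggcgccagctgtgTTCCtgaccccagaata
CLEC14A, from -162: gctccgcacacatTTCCtgtcgcggcctaa
CLEC14A, from -71: gcgagggcggaggGGAAgggagggGGAAcc
MMRN2, from -236: cccagggagcaggTTCCcataaggatgcat
MMRN2, from -191: catgtctaccacaTTCCcagagtccctgag
MMRN2, from -64: cggcccaggccacTTCCtctctttgttgtc
EMILIN2: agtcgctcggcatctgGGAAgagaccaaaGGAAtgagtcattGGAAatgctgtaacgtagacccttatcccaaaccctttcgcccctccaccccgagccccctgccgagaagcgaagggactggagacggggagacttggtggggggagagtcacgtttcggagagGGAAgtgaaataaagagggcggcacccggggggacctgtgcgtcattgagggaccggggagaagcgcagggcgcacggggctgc
MMRN1, second start, from -219: cagggtgtgctcaGGAAaagaaagttactt
MMRN1, second start, from -120: gacccttcagcacTTCCatagagccatccc
MMRN1, second start, from -66: ccctacagaaacaGGAAaccgaacTTCCtg
MMRN1, first start: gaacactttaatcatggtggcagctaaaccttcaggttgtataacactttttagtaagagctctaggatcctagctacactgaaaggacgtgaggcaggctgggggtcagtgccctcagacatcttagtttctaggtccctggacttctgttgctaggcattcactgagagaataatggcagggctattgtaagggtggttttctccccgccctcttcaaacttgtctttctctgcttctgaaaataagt

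The GGAA core is common, with at least 1 match in 92.7% of the 35116 windows of the table and a median of 3. CLEC14A had 6 matches and MMRN2 5, numbers reached by 9.14% and 18.6% of all windows. EMILIN2 had 4, a number reached by 34.3%. The first start of MMRN1 had none and its second start 7, a number reached by 4.10%. The longer form AGGAAG, which contains the core and occurs in 28.7% of windows, was present once in MMRN2 (within the stretch from -64), once at the second start of MMRN1 and not in CLEC14A or EMILIN2. CAGCTG, an E-box found in 14% of windows, occurred at 2 places in CLEC14A, as in 1.27% of windows, and in none of the others. TGGGAA, the core bound by the Notch effector RBPJ and an overlap with GGAA, occurred at 2 places in MMRN2, in the stretches from -236 and -191, as in 2.90% of windows, once in EMILIN2 and once at the second start of MMRN1. GGCGCC, an element of BMP-responsive genes that is present in 16.4% of windows, occurred once in CLEC14A at the head of the stretch from -219. CCACCC, the box of Kruppel-like factors, which 31.3% of windows hold, occurred once each in MMRN2, EMILIN2 and the first start of MMRN1. GTCT, a short SMAD element present in 77.5% of windows, had 4 matches in EMILIN2, a number reached by 7.75% of windows, 2 in MMRN2, 2 at the first start of MMRN1, 1 at its second start and none in CLEC14A. No window of these genes held AGATAA or TATAAA, which 9.17% and 10.7% of all windows hold. A match is a string of letters and was not tested as a binding site.

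The genes whose profile across the sort lay closest to that of each member were sought among the 5919 genes at or above 10 FPKM in a library, by the Euclidean distance over the log2 fold changes of CD105low and CD105high against CD105neg. With 3 libraries this is a likeness of 2 numbers only. Closest to CD93 were PCDH12, a protocadherin gene of endothelial cells (distance 0.10), TNFSF10, which encodes the death ligand TRAIL (0.10), and GIMAP8, an immunity-associated GTPase gene (0.26). PCDH12 measured 2.93, 13.3 and 23.0 FPKM along the sort. Closest to CLEC14A were the Notch ligand gene DLL4 (0.022), CXorf36 (0.071) and BMP6 (0.072), a BMP ligand gene that stood at 5.20, 14.6 and 23.7 FPKM. Closest to THBD were THSD1, a thrombospondin-repeat membrane protein gene (0.067), ENPP1 (0.10) and EMP1 (0.11). Closest to MMRN2 were PMAIP1, LPAR6 and FAM46B (0.037 to 0.043). For the descending genes the 3 nearest each lay within 0.027: TLNRD1, LDHA and CDC7 for CD248, MRPL42, CIB1 and SFT2D1 for MMRN1, FAM50A, WDR18 and BMPER for EMILIN1, and NIPSNAP3A, BCCIP and MME for EMILIN2. Since CD248 lies near 1 FPKM, the added 1 shrinks its fold, and its likeness to these genes depends on that pseudocount. Its plain ratio of CD105high to CD105neg was 0.60, while LDHA stood at 59.5 FPKM in CD105high, against 75.0 in CD105neg. Measured genes centre near 0, with medians of -0.09 for CD105high and 0.02 for CD105low against CD105neg. Members near 0 thus have more genes around them, and the distances of ascending and descending members cannot be compared.

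Endothelial genes other than the members were set beside the 4 ascending genes. Of 24 such genes, all measured, 16 were at least 1.5-fold higher and 1 lower in CD105high than in CD105neg, with a median log2 fold change of 0.76. For this and the lists below, the shares over all measured genes were 5.65% higher and 6.88% lower. The list summed to 1948, 2731 and 2862 FPKM along the sort, and its part in the ascending genes was not tested. CD93 was chosen on this comparison, and the other members were listed with it known, so their places beside the list are a description only. None of the 24 had a log2 fold change above that of CD93. ENG (2.25) and RAMP2 (2.03), part of the adrenomedullin receptor, lay above CLEC14A and THBD, and 6 genes lay above MMRN2, among them ROBO4 (1.74) and VWF (1.57). ICAM2 was the endothelial gene that was lower, at 17.2 FPKM in CD105high, against 50.9 in CD105neg; it was picked out after its values were seen.

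Other genes with a C-type lectin domain were read next. Of 70 with a value, 18 were measured, and 4 of these were at least 1.5-fold higher and 2 lower in CD105high than in CD105neg (median log2 fold change 0.03). Over all measured genes 5.65% were higher and 6.88% lower. The 4 were SELE, the endothelial selectin (1.60), MRC1, the mannose receptor gene (1.02), VCAN, the proteoglycan versican (0.95), and COLEC12, a scavenger receptor gene, at 118 FPKM in CD105high, against 61.9 in CD105neg. FREM1, an extracellular matrix gene (-1.13), and CD69, a leukocyte activation marker gene at 18.7 against 35.1 FPKM, were lower. All 18 had a log2 fold change below those of CD93, CLEC14A and THBD. This too is a description, since these members were chosen or listed with this comparison known. Of 28 other genes with a gC1q domain, the domain that EMILINs and multimerins share, 7 were measured, with 1 higher and none lower (median -0.09). EMILIN3, the remaining EMILIN gene, stood at 0.48 FPKM in CD105high, against 1.15 in CD105neg (-0.53), and CBLN1, a cerebellin gene, at 3.33 against 0.30 FPKM (1.74). C1QTNF3 and C1QTNF12 lay at -0.34 and -0.14.

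**Figure D4:**
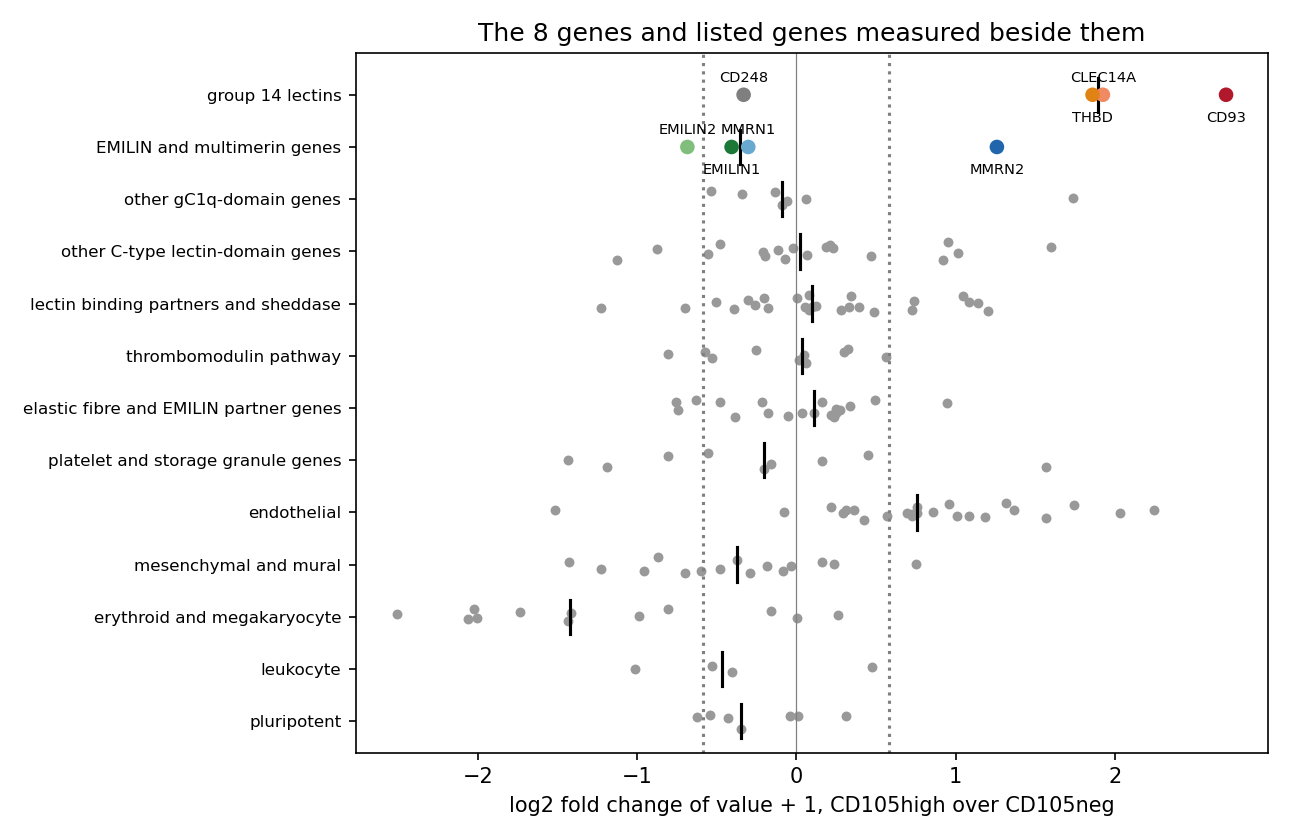
Log2 fold change (value + 1) of CD105high over CD105neg for the 8 members (coloured, named) and for measured genes of 11 lists (grey, 1 point a gene, spread vertically for legibility); black bars are list medians and dotted lines the 1.5-fold rule. CD93, CLEC14A, THBD and MMRN2 lie at or beyond the upper part of the endothelial list, and the other members lie among genes near or below 0. CD93 was chosen on this comparison, and the other members were listed with it known.

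Genes of proteins that bind the lectins, or that act with them, lay on both sides. Of 26, 25 were measured, with 6 higher and 2 lower in CD105high than in CD105neg (median log2 fold change 0.10). COL4A1, a basement membrane collagen gene, stood at 273 FPKM in CD105high, against 118 in CD105neg (1.21), and HSPG2, the heparan sulfate proteoglycan perlecan, at 44.5 against 19.6 FPKM (1.14). FLT4, the VEGF receptor of lymphatic endothelium, had a log2 fold change of 1.09. COL1A1, a fibrillar collagen gene whose product CD248 binds, stood at 8.57 against 21.4 FPKM (-1.23), the direction of CD248 itself. IGFBP7, a secreted ligand reported for CD93, stood at 4.08 FPKM in CD105high, against 5.08 in CD105neg, and the integrin chain gene ITGB1, which acts with CD93 and MMRN2 in fibronectin assembly, at 370 against 345 FPKM. FN1, fibronectin, stood at 249 against 326 FPKM. The rhomboid protease gene RHBDL2, whose product cuts CLEC14A and thrombomodulin, was below 1 FPKM in each library.

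Genes that work with thrombomodulin showed smaller differences than THBD. Of 16 with a value, 10 were measured, none was at least 1.5-fold higher and 1 was lower in CD105high than in CD105neg (median log2 fold change 0.03). PROCR, the protein C receptor, stood at 96.8 FPKM in CD105high and 93.4 in CD105neg, and F2R, the thrombin receptor PAR1, at 81.8 and 80.8 FPKM. TFPI, the tissue factor pathway inhibitor, was at 273 against 184 FPKM (0.56, just under 1.5-fold, which it passes after centring on the median gene). F3, tissue factor, was at 2.22 against 3.64 FPKM (-0.53), and PF4, a platelet chemokine that binds thrombomodulin, at 0.58 against 1.77 FPKM (-0.81).

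Elastic fibre genes, the setting of the EMILINs, were 19 measured of 26, with 1 higher and 3 lower in CD105high (median log2 fold change 0.11). ELN, elastin, stood at 0.51 FPKM in CD105high, against 1.55 in CD105neg (-0.75), LTBP3, which holds latent TGF-beta, at 1.02 against 2.38 FPKM (-0.75), and LOXL3, a crosslinking oxidase gene, at 13.8 against 21.9 FPKM (-0.63). After centring on the median gene 2 of the 3 were still lower, and with a pseudocount of 5 none was. ITGA9, an integrin chain that binds EMILIN1, was the one that was higher, at 77.6 against 39.8 FPKM (0.94). TGFB1 stood at 12.7 against 9.84 FPKM.

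Markers of other cells that can make these proteins were read beside the descending genes. Mesenchymal and mural genes, where CD248 and EMILIN1 are known, had 6 of 15 measured members lower and 1 higher in CD105high than in CD105neg (median log2 fold change -0.37), with PDGFRB at 2.74 against 9.05 FPKM, COL3A1 at 6.79 against 14.1 FPKM and TAGLN at 41.9 against 77.5 FPKM. THY1 was the one that was higher, at 57.3 against 33.6 FPKM (0.75), and among the other 8 genes ACTA2 (0.23), PDGFRA (0.16), RGS5 (-0.03) and NOTCH3 (-0.08) lay near 0. The list summed to 612, 601 and 513 FPKM along the sort, and DCN, LUM, POSTN and MYH11 stayed below 1 FPKM in each library. Platelet and storage granule genes, the setting of MMRN1, had 3 of 9 measured members lower and 1 higher (median -0.21, sums of 193, 194 and 211 FPKM along the sort). CD63, a membrane protein gene of granules and endosomes, made up 157, 158 and 175 FPKM of these sums. ITGA2B stood at 2.28 against 7.84 FPKM and ITGB3 at 0.24 against 1.84 FPKM, VWF was higher at 16.5 against 4.89 FPKM, and PPBP, GP9, GP1BA, TUBB1 and F5, the partner of multimerin 1, were below 1 FPKM in each library. Erythroid and megakaryocyte genes had 9 of 12 measured members lower and none higher (median -1.42, sums of 114, 72.9 and 57.7 FPKM along the sort), led by HBE1 (-2.51), GYPB (-2.06), RHAG (-2.03) and HBG2 (-2.00). Of these, globin and glycophorin genes have near-identical copies, so their values are uncertain. Leukocyte genes had 1 of 4 lower, SPN (-1.02), beside LAPTM5 (-0.53), LCP1 (-0.40) and LYZ (0.48), with PTPRC at most 0.0038 FPKM and MPO listed at 0 in each library. Their sums along the sort were 61.6, 53.6 and 42.6 FPKM. Pluripotent genes had 1 of 7 lower, CDH1 (-0.62), and none after centring on the median gene, with a pseudocount of 5 or at 10 FPKM, beside EPCAM (-0.54), DNMT3B (-0.43) and TDGF1 (-0.35), with sums of 135, 130 and 124 FPKM. The part of other cell types in the members' differences was not tested.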

How the data were processed

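RNA-seq of 3 sorted populations of H1-derived cells was used, 1 library each. A TruSeq RNA kit, with 2 ug of RNA as input, was used per the labels' protocols. BWA, Bowtie, RSEM and hg19 appear in the submitters' processing notes, without version, role or order. Neither annotation nor filters are given in the sources used here. The deposited values name no unit and were treated as FPKM, made by the authors; TPM cannot be told apart from the values, and the number of reads is not given. Groups came from the sample labels.

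Members, gene lists and motifs were chosen with earlier results of these data known. Log2 fold changes used a pseudocount of 1, and at least 1.5-fold counted as higher or lower among genes at or above 1 FPKM in a library. With 1 library a group no test was possible. Lists leave out the 8 members. The text names the members, the gate genes and CDH5, the 4 measured genes per list that lay farthest from 0 in CD105high against CD105neg, the flanking genes and the 3 nearest profiles of each member; other named genes were picked after their values were seen. Alternatives were pseudocounts of 0.1 and 5, centring on the median gene, rescaling each library to 1 common sum, a minimum of 10 FPKM and no minimum. Rescaling was not applied to the gene lists. Transcript lengths, exons and overlaps came from GENCODE release 29, which is on another build than hg19, so no gene coordinates are given; promoter windows are from RefSeq, GRCh38.p14. No 50-base piece of CD93, CLEC14A, CD248, THBD, MMRN1 or EMILIN1 transcripts occurred in another gene; 0.49% of EMILIN2 and 7.58% of MMRN2 pieces did. The functions were tested on simulated data. Python 3.11.15, pandas 2.3.3, numpy 2.4.6, scipy 1.17.1 and matplotlib 3.10.9 were used.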

Additional observations from a re-analysis of the deposited data

How the results depend on the processing

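Each of the 8 genes kept its direction in all 3 comparisons under each setting that kept it; CD248, MMRN1 and EMILIN2 do not reach a minimum of 10 FPKM. In CD105high against CD105neg, the number of genes lower was 2 with a pseudocount of 0.1, with CD248 added (log2 fold change -0.65), and 0 with a pseudocount of 5 (EMILIN2 -0.46) or at a minimum of 10 FPKM. In CD105high against CD105low, 1 gene was higher with a pseudocount of 5, where CLEC14A (0.48) and THBD (0.51) were under 1.5-fold. When neighbouring populations had to be 1.2-fold apart, 1 gene kept the falling order, and the 4 rising genes kept theirs. Over all listed genes other than members, 25 were lower in CD105high than in CD105neg, against 13 with a pseudocount of 5 and 9 at 10 FPKM. In CD105low against CD105neg, 12 were lower, against 5 and 4 at these settings. In CD105high against CD105low, 5 were higher, against 1 with a pseudocount of 5, 9 after centring and 3 at 10 FPKM, and 13 were lower, against 21 with a pseudocount of 0.1, 2 with 5 and 6 at 10 FPKM. The median of the platelet and storage granule list turned to 0.86 at 10 FPKM, where fewer genes are tested. No paired analysis was possible because each population has 1 library. The absence of replicates limits every difference, and among the 4 lectins CD248 rested on the fewest fragments.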
